A study of Mus musculus with 4 samples.

Results

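The genes described here are the 74 genes of the count matrices that belong to 6 families of flagellum and axoneme components. They were taken as every symbol that starts with Dnah, Cfap, Tekt, Rsph, Odf or Drc followed by a digit, without the opposite-strand transcript Dnah2os, which left 74 of 55357 genes. The families hold 35 Cfap, 15 Dnah, 8 Rsph, 8 Odf, 5 Tekt and 3 Drc genes. Nuclei from whole testes of male mice aged 8 weeks were profiled with the 10x Chromium 3′ kit in 4 libraries, 2 from wild-type (WT) mice and 2 from Dhx37-/- mice, with labels that number 2 biological replicates within each genotype. The Dhx37-/- mice carried Dhx37 alleles with a loxP-flanked exon and a Cre transgene under the Amh promoter, which is active in Sertoli cells. Whether germ nuclei kept the exon was not tested. The floxed mice were C57BL/6 based and the WT mice were littermates, while the background of the Cre line is not given in the sources used here. Dhx37, an RNA helicase of the DEAH family, was read at 7.06, 11.8, 10.4 and 10.6 CPM (UMIs of a gene per 1000000 UMIs) over all nuclei of WT 1, WT 2, Dhx37-/- 1 and Dhx37-/- 2. In the nuclei assigned to Sertoli cells by markers it was read at 7.53, 25.1, 11.2 and 6.72 CPM, from 4, 3, 12 and 14 UMIs, so the genotypes overlapped, and 3′ counts this low do not test a deletion of 1 exon. Values of 4 libraries are given in this order throughout.

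The sperm flagellum is a modified motile cilium, built on an axoneme of outer microtubule doublets around a central pair. Dynein arms, whose motor subunits are the Dnah heavy chains, slide the doublets against each other, while radial spokes (Rsph) and the nexin-dynein regulatory complex (Drc) control that sliding. Tektins (Tekt) and many Cfap proteins lie inside or along the doublets. Outer dense fibres, after which the Odf genes are named, are specific to the sperm tail. In mouse testis many axoneme genes are transcribed in meiosis, ahead of the assembly of the tail in spermatids, when chromatin compaction ends transcription.

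RFX factors, regulators of ciliary genes, bind the X-box, whose core holds the letters GTTGCC. RefSeq promoter windows (250 bases before to 50 after each start, GRCm38.p6) were matched by symbol for 60 of the 74 genes, with 72 windows. GTTGCC on either strand was present in 25 of these 72 windows (34.7%) and in 12.5% of all 32851 windows. The letters AACNGNC of the MYB motif were in 54.2% of the members' windows and in 32.8% of all windows, and the full CRE TGACGTCA was in 1.39% and 1.79%. A match describes letters only. Sequences of the 150 bases upstream of the start are shown for 4 genes that hold the core and, for contrast, Odf3b, the member most concentrated in elongating spermatids, which holds none. Each is written 5′ to 3′ on the gene's strand, and capitals mark GTTGCC or its reverse complement.
Cfap161, chr7:83794840-83794989, minus strand: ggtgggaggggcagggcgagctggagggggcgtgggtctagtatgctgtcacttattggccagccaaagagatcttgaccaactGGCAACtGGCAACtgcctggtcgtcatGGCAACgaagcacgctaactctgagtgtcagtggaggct
Cfap44, chr16:44394649-44394798, plus strand: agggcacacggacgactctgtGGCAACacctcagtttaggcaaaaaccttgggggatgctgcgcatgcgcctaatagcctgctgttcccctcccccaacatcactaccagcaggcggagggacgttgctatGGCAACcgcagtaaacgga
Tekt1, chr11:72361883-72362032, minus strand: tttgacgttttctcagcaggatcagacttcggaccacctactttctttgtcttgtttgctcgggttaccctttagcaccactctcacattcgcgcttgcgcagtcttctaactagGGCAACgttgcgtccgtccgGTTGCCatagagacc
Odf3, chr7:140847766-140847915, plus strand: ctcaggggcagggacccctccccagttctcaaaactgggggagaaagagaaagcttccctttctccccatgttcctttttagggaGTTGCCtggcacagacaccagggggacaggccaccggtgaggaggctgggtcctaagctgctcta
Odf3b, chr15:89379255-89379404, minus strand: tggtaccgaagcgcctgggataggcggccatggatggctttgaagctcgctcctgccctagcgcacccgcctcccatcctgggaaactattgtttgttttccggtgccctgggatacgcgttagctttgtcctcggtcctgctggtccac
Cfap161 held 3 copies, Cfap44 and Tekt1 2 each and Odf3 1. The windows were also grouped by the stage at which the gene was highest. The core was in 3 of 9 windows (8 genes) for early meiotic prophase and 15 of 40 (37 genes) for pachytene spermatocytes. It was in 7 of 16 (11 genes) for round spermatids and 0 of 7 for elongating spermatids, which came from 4 genes only.

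Germ stages were assigned to single nuclei from marker genes, none of which is among the 74. After calling, 9902, 8295, 8821 and 10030 nuclei were kept, with median UMI counts from 3304 to 4157, and pairs of libraries shared 19 to 29 barcodes. The spermatogonia gate held 144, 57, 110 and 399 nuclei, the early meiotic prophase gate 107, 37, 143 and 397, and the pachytene spermatocyte gate 998, 1128, 1018 and 914. The round spermatid gate held 2782, 2497, 1009 and 2614 nuclei and the elongating spermatid gate 1137, 1326, 2810 and 1608. Of the fixed markers, 8 of 11, 8 of 12, 8 of 12, 11 of 13 and 9 of 10 were raised in these 5 gates, to at least 20 CPM and 1.5 times the level in other nuclei. The gates were made from these same markers, so this does not test the names of the gates. In the same order, Gfra1, Dmrtb1 and Sall4, then Prdm9, Dmc1, Tex15 and Smc1b, then Ldhc, Hspa2, Aurkc and Nxph1 were not raised. Nor were Acr and Tssk1 in round spermatids and Hook1 in elongating spermatids. The early meiotic prophase gate did not hold the same nuclei in both genotypes, and its leading genes were Stox1 and Zfp820. Nuclei with at least 4 of the 5 genes Zfp820, Stox1, Gm14244, 4930444F02Rik and Kcnk10 made up 1, 0, 38 and 187 of its nuclei. Counts of called genes in this gate, and the levels of some members, are given with and without them. Levels are CPM within a gate, with the mean and SD over the 4 libraries.

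Transcripts of the 74 genes made up most of their share of nuclear RNA in meiosis. Their summed share of UMIs was 2.07%, 1.87%, 1.98% and 2.02% in the pachytene gate, 1.38%, 1.29%, 1.40% and 1.30% in round spermatids and 0.735%, 0.657%, 0.742% and 0.704% in elongating spermatids. In spermatogonia it was 0.506%, 0.503%, 0.365% and 0.4002%. The order of pachytene, round, elongating and spermatogonial share was the same in each library. In early meiotic prophase the share was 2.03% and 1.80% in WT and 1.30% and 1.41% in Dhx37-/-. It lay between the pachytene and round shares in WT 1, WT 2 and Dhx37-/- 2, and below the round share in Dhx37-/- 1. Without the Zfp820 and Stox1 nuclei it was 2.03%, 1.80%, 1.02% and 1.02%, below the round share in both Dhx37-/- libraries. The Sertoli, Leydig and macrophage gates read 0.246% ± 0.0169, 0.251% ± 0.0315 and 0.304% ± 0.0445 (SD, n = 4), the peritubular myoid and fibroblast gates 0.267% ± 0.0692 and 0.295% ± 0.0503, and the small endothelial and T cell gates, of 16 to 82 and 12 to 41 nuclei a library, 0.571% ± 0.105 and 0.662% ± 0.0968. The last 2 lay above the spermatogonial mean of 0.444% ± 0.0718. Free RNA, read from barcodes with too few UMIs to be nuclei, held 1.13% ± 0.111. It can add UMIs of these genes to any gate, in an amount that was not estimated.

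Of the 72 genes with at least 50 UMIs in each library over the germ gates, 46 had their highest mean level in the pachytene gate, 12 in round spermatids, 8 in early meiotic prophase, 6 in elongating spermatids and 0 in spermatogonia. Over all 16789 genes with as many UMIs the highest gate was pachytene for 22.1%, round for 20.1%, early prophase for 8.21%, elongating for 23.9% and spermatogonia for 25.6%, against 63.9%, 16.7%, 11.1%, 8.33% and 0% of the 72. The highest gate was the same in each of the 4 libraries for 22 of the 46 pachytene genes, 8 of the 12 round genes, 2 of the 8 early prophase genes and 6 of the 6 elongating genes. As the gates were made from the same nuclei, these are descriptions. With the Zfp820 and Stox1 nuclei left out, 4 genes rather than 8 peaked in early prophase. The 2 members under the limit of UMIs were Rsph4a, with 35 UMIs in all, and Odf3l2, with 3.

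**Figure D1:**
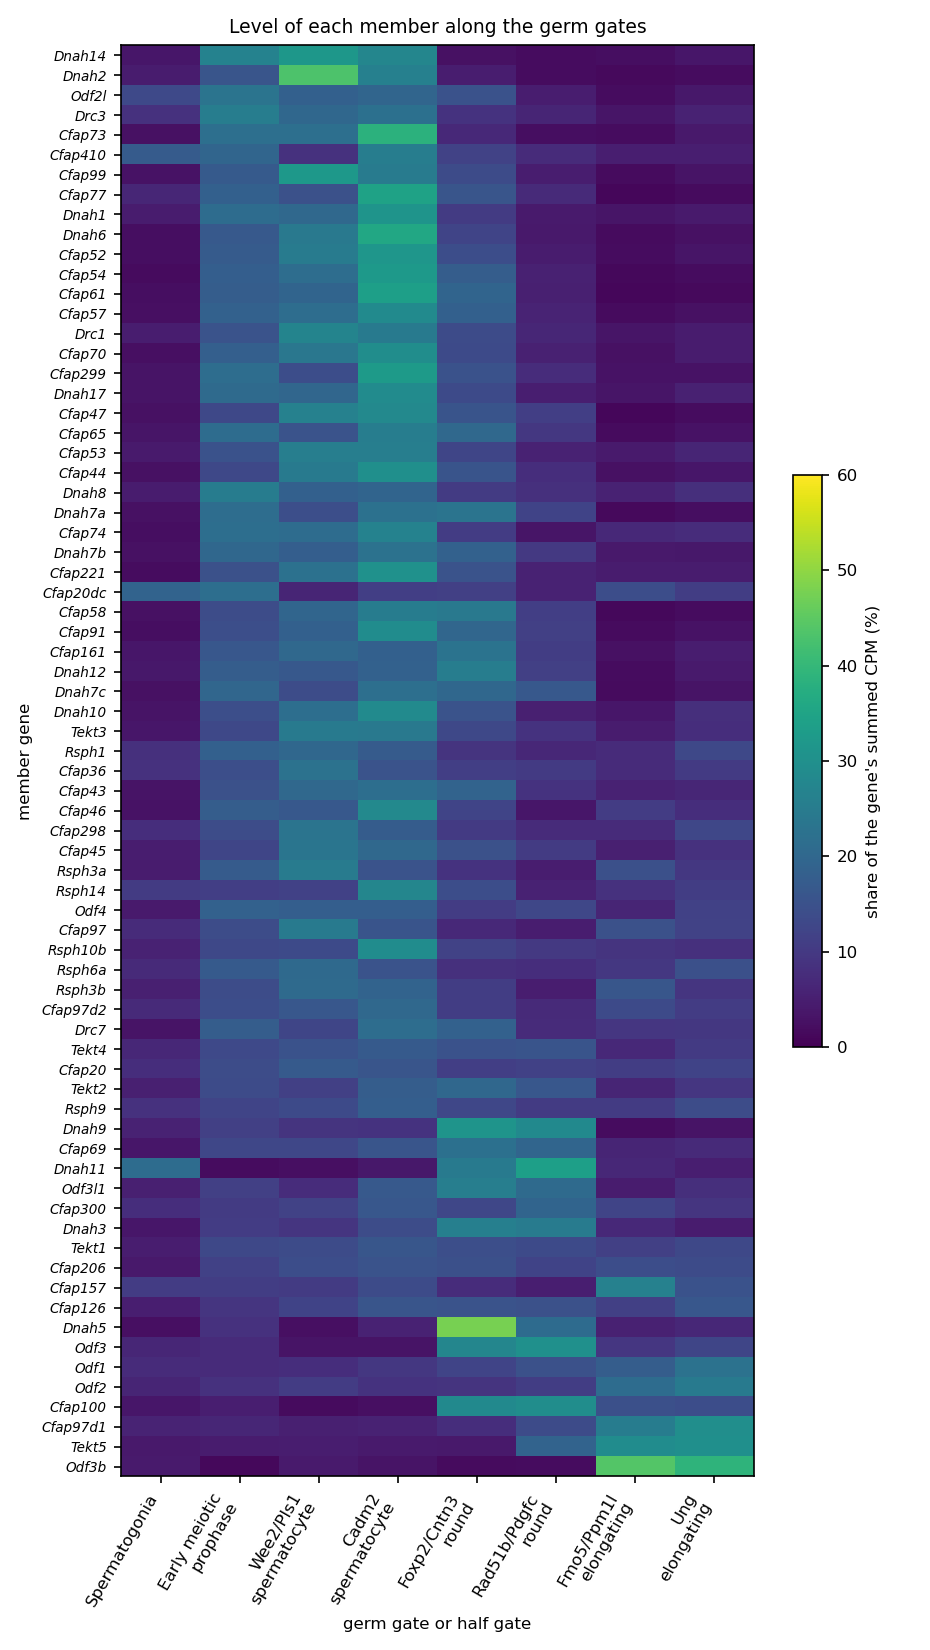
Share of each gene's summed level (CPM, mean of 4 libraries, in %) found in each germ gate or subset of a gate, for the 72 measured genes ordered by stage. Brighter colours are larger shares. Most rows are brightest in the spermatocyte columns, and the last rows, Cfap97d1, Tekt5 and Odf3b, are brightest in the elongating columns.

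The outer-arm dynein heavy chains peaked at contrasting stages. Dnah8, a heavy chain of the sperm outer arm, read 703, 489, 696 and 833 CPM in pachytene nuclei and 395, 249.3, 327 and 369 CPM in round spermatids. Its early prophase level was 901 ± 344 CPM, with 1026 and 1297 CPM in the Dhx37-/- libraries and 794 and 487 CPM in WT, and 727, 487, 375 and 456 CPM without the Zfp820 and Stox1 nuclei, when its highest gate became the pachytene one. Dnah17, its partner in the sperm arm, read 251, 210, 235 and 240 CPM in pachytene nuclei and 83.2 ± 10.98 CPM in round spermatids. Both were thus higher in spermatocytes than in round spermatids in every library. Dnah5, Dnah9 and Dnah11, known from the outer arms of airway cilia, were instead highest in round spermatids. Dnah5 read 139, 101, 99.98 and 76.2 CPM there and 23.4, 23.2, 9.07 and 15.8 CPM in pachytene nuclei, with 59.6% of its summed level in the round gate. Dnah9 read 168, 186, 150.0 and 116 CPM in round spermatids against 48.3 ± 10.8 CPM in pachytene nuclei. Dnah11 read 41.8, 38.6, 27.5 and 38.0 CPM in round spermatids. It also had the largest spermatogonial share of the set, 33.2%, which came from WT 1 at 70.9 CPM, while the other libraries read 8.75 to 11.1 CPM.

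Of all 15 Dnah genes, 7 had their highest mean in pachytene nuclei, 5 in round spermatids and 3 in early prophase. Dnah2 read 313, 245, 375 and 447 CPM in the pachytene gate and 44.1, 34.7, 29.3 and 36.4 CPM in round spermatids, so that 54.6% of its summed level lay in pachytene nuclei. Dnah6 followed with 51.5%, at 575 ± 75.0 CPM in pachytene nuclei and 148 ± 26.5 CPM in round spermatids. Dnah1, whose loss in humans and mice gives malformed flagella, read 87.6, 85.5, 104 and 100.4 CPM in pachytene nuclei and 24.98 ± 2.11 CPM in round spermatids. Each of these genes was several-fold lower in round spermatids in each library. Dnah10 was another pachytene gene, at 373 ± 19.7 CPM and 209 ± 164 CPM in early prophase, while Dnah12 (386 ± 58.0 CPM in round spermatids, 382 ± 95.4 CPM in early prophase) and Dnah7b (683 ± 69.2 CPM in pachytene nuclei, 671 ± 136 CPM in early prophase) did not differ between their top gates beyond their spread. Dnah14 had the largest early prophase share, 41.8%, at 312 and 184 CPM in WT and 714 and 903 CPM in Dhx37-/-, and a mean of 558 ± 149 CPM in pachytene nuclei. That share rested on the Zfp820 and Stox1 nuclei, without which it was 26.7%, at 258, 184, 235 and 296 CPM, and Drc3 had the largest share at 37.5%. Dnah3 differed in timing, since it was highest in round spermatids, at 1215, 1020, 1231 and 1226 CPM against 573 ± 76.0 CPM in pachytene nuclei. Dnah7a and Dnah7c stayed high from early prophase to the round stage. Dnah7c read 993 ± 167, 937 ± 112 and 910 ± 88.6 CPM in these 3 gates, which overlapped, and 114 ± 23.2 CPM in elongating spermatids, with 760 ± 292 CPM in early prophase without the Zfp820 and Stox1 nuclei. Dnah7a, Dnah7b and Dnah7c are near-identical copies, as are Rsph3a and Rsph3b, so the division of reads within each set is uncertain.

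Genes of the radial spokes and of the regulatory complex had their highest means in the pachytene or early prophase gates. The pachytene mean was the highest for the 7 measured Rsph genes, in each of the 4 libraries for 4 of them. For Rsph6a it was 37.6 ± 11.1 CPM against 37.1 ± 13.5 CPM in early prophase, which overlapped. Without the Zfp820 and Stox1 nuclei, Rsph1 and Rsph6a had their highest mean in early prophase instead, at 696 ± 196 and 41.0 ± 13.5 CPM. With all nuclei Rsph1, a spoke-head protein, read 563, 662, 800.3 and 755 CPM in the pachytene gate and 439, 657, 809 and 808 CPM in early prophase. These neighbouring stages did not differ beyond their spread. It read 288 ± 35.3 CPM in round spermatids. Rsph9, also of the spoke head, ranged across stages from 39.1 ± 11.3 CPM in spermatogonia to 76.8 ± 6.74 CPM in pachytene nuclei. Rsph4a, the spoke-head subunit of airway cilia, was near 0, at 1.16 ± 0.420 CPM in pachytene nuclei. Drc1, a scaffold of the nexin link, read 128, 136, 155 and 142 CPM in pachytene nuclei and 54.4 ± 5.85 CPM in round spermatids. Drc3 read 81.2, 91.8, 146 and 171 CPM in early prophase and 86.8, 104, 105 and 112 CPM in pachytene nuclei, so that its early prophase level was below the pachytene one in both WT libraries and above it in both Dhx37-/- libraries, where it was 142 and 160.0 CPM without the Zfp820 and Stox1 nuclei. Drc7 read 83.7, 148, 38.4 and 38.7 CPM in early prophase and 84.8, 82.7, 78.5 and 69.9 CPM in pachytene nuclei, so that its early prophase level was below the pachytene one in both Dhx37-/- libraries and in WT 1, and above it in WT 2.

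Among the Cfap genes, 27 of 35 peaked in pachytene nuclei. Cfap61, a subunit of the complex at the base of a radial spoke, read 1341, 939, 911 and 881 CPM in pachytene nuclei, 531, 400, 434 and 349 CPM in round spermatids and 60.9, 33.0, 57.2 and 43.4 CPM in elongating spermatids. The pachytene mean was thus 20.9-fold the elongating mean. Cfap43 and Cfap44, which together tether inner-arm dyneins, read 744 ± 16.6 and 281 ± 34.2 CPM in pachytene nuclei and 484 ± 52.6 and 117 ± 11.4 CPM in round spermatids. Cfap65 read 655 ± 129 CPM in pachytene nuclei and 635 ± 298 CPM in early prophase, which overlapped. Cfap73, which binds inner-arm dynein with Cfap100, read 19.5, 32.9, 34.0 and 29.7 CPM in pachytene nuclei and 4.01 ± 0.742 CPM in round spermatids. Cfap100 itself was a round spermatid gene, at 447, 676, 586 and 614 CPM there against 64.5, 82.0, 39.9 and 58.6 CPM in pachytene nuclei. These partners therefore peaked at different stages. Cfap69, needed for a normal tail, read 793, 682, 744 and 755 CPM in round spermatids and 521 ± 52.7 CPM in pachytene nuclei. Cfap97d1 was among the 6 genes of elongating spermatids, at 112, 132, 118 and 126 CPM against 50.3 ± 8.39 CPM in round spermatids. Cfap20dc and Cfap410 had spermatogonial shares of 27.0% and 24.2%, at 82.7 ± 11.5 and 15.2 ± 7.66 CPM in that gate.

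Of the 5 Tekt genes, 3 peaked in pachytene nuclei, 1 in round and 1 in elongating spermatids, and of the 7 measured Odf genes 2 peaked in early prophase, 2 in round and 3 in elongating spermatids. Odf2l (153 ± 18.5 CPM) was highest in early prophase in all 4 libraries, and Odf4 read 44.3 ± 15.6 CPM there and 43.1 ± 4.72 CPM in pachytene nuclei, which overlapped. Tekt5 read 119, 121, 134 and 133 CPM in elongating spermatids and 61.1, 47.7, 43.2 and 64.4 CPM in round spermatids, with 52.7% of its summed level in the elongating gate. Tekt3 was a pachytene gene, at 105 ± 12.1 CPM against 45.8 ± 1.64 CPM in round spermatids. Tekt1 read 168 ± 18.6 CPM in pachytene nuclei and 148 ± 19.8 CPM in round spermatids and was higher in pachytene nuclei in each library. Tekt2 read 135 ± 20.2 and 155 ± 30.9 CPM and was higher in round spermatids in each library, but its early prophase level, at 145, 177, 78.1 and 76.2 CPM, was above the round one in both WT libraries. Tekt4 read 109 ± 14.8 and 98.7 ± 7.199 CPM, with WT 1 lower in pachytene nuclei and the other libraries higher. Odf1 and Odf2, structural proteins of the fibres themselves, were highest in elongating spermatids. Odf2 read 1092, 983, 1287 and 1304 CPM there and 539, 436, 574 and 597 CPM in round spermatids, while Odf1 read 234, 143, 168 and 176 CPM and 153, 100.2, 115 and 138 CPM. Odf3b was nearly confined to the elongating gate, which held 79.3% of its summed level, at 39.6, 57.9, 81.4 and 76.5 CPM there and 1.48 to 4.98 CPM in round spermatids. Odf3 peaked earlier, at 146, 230, 324 and 340 CPM in round spermatids and 32.9 ± 5.71 CPM in pachytene nuclei.

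**Figure D2:**
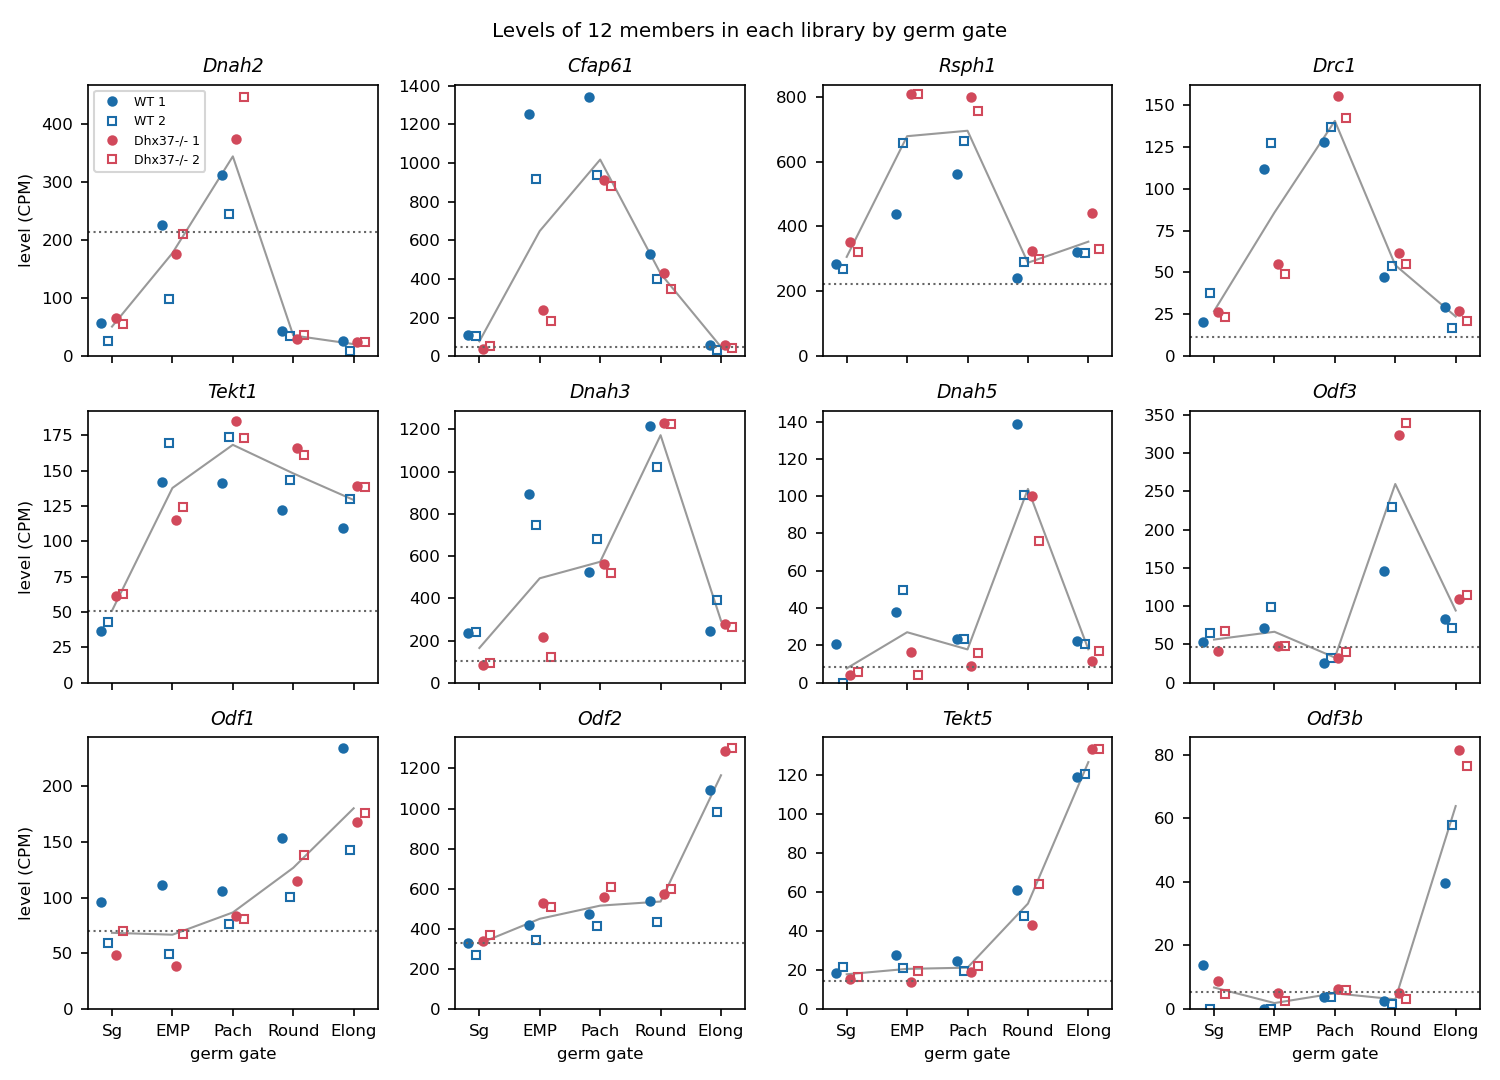
Level (CPM) of 12 genes in the spermatogonia, early meiotic prophase, pachytene, round and elongating gates, with 1 point per library, the mean of 4 libraries as a grey line and the highest mean of the Leydig, macrophage and Sertoli gates as a dotted line. Dnah2 and Cfap61 are highest in pachytene nuclei, Dnah5 and Odf3 in round spermatids, and Odf2, Tekt5 and Odf3b in elongating spermatids.

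The late gates were divided by markers that their nuclei express. In the pachytene gate the nuclei with more Cadm2 than Wee2 and Pls1 UMIs had a summed share of 2.17% ± 0.112, against 1.72% ± 0.0638 in those with more Wee2 and Pls1, and 40 of the 72 genes were higher in the former in all 4 libraries and 11 in the latter. Cfap299 read 2344, 1697, 1918 and 2240 CPM in the Cadm2 nuclei and 999.7, 769, 855 and 940 CPM in the Wee2/Pls1 nuclei. Round spermatids with more Foxp2 and Cntn3 UMIs held 1.64% ± 0.0707 and those with more Rad51b and Pdgfc 1.09% ± 0.0627, with 54 genes higher in the former and 9 in the latter. Cfap61 read 893, 640, 653 and 656 CPM in the former and 274, 144, 194 and 171 CPM in the latter, whereas Dnah3 read 1275, 1052, 1222 and 1237 CPM and 1174, 983, 1236 and 1225 CPM. The Dnah3 values overlapped where those of Cfap61 did not. In elongating spermatids the Ung nuclei held 0.772% ± 0.0589 and the Fmo5/Ppm1l nuclei 0.661% ± 0.0233.

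Level in nuclei was then set against free RNA. The median log2 ratio of nuclear over free level of the 72 genes was -0.11, 0.22, 0.47 and 0.20, and that of all genes with enough UMIs 0.12, 0.28, 0.54 and 0.40. WT 1 was the lowest library for both. The members' median lay below that of all genes in each library, but this order turned with germ gates alone as the nuclei, at 0.15, 0.40, 0.59 and 0.36 for the members and -0.03, 0.20, 0.39 and 0.31 for all genes, and in 3 libraries with barcodes under 50 UMIs as the free RNA. Cfap298 (-1.70 ± 0.27, SD, n = 4), Odf1 (-1.67 ± 0.27) and Rsph1 (-1.58 ± 0.28) had the lowest ratios. Cfap61 (1.74 ± 0.63), Dnah3 (1.59 ± 0.80) and Cfap77 (1.57 ± 0.46) had the highest. Of the 6 genes that peaked in elongating spermatids 5 were below 0, with a median of -0.38, and the 46 pachytene genes had a median of 0.41.

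**Figure D3:**
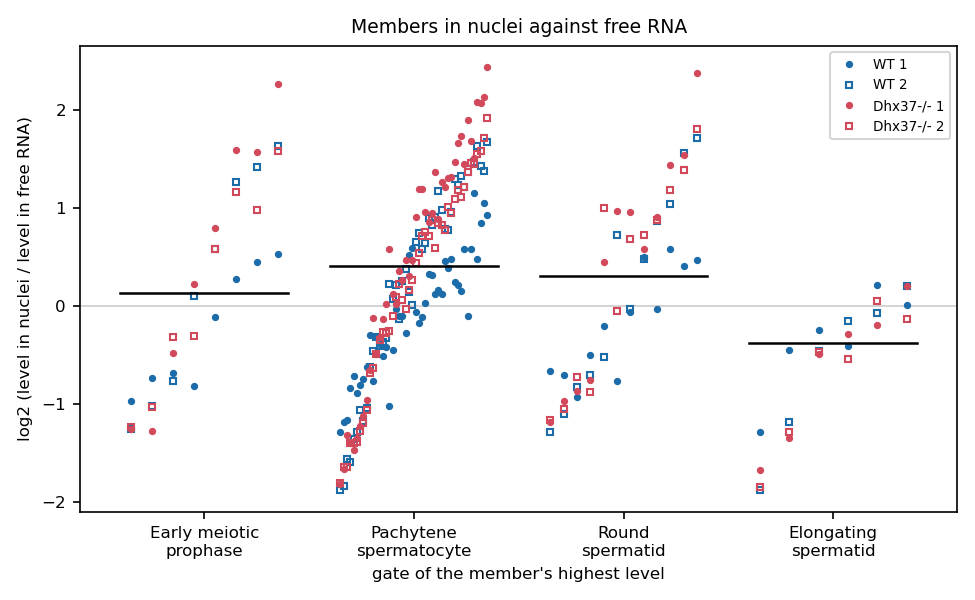
Log2 ratio of the level in nuclei over the level in free RNA for the 72 measured genes, with 1 point per library, grouped by the gate of the highest level and ordered by the mean ratio, and a black line at the median of each group. Odf1, with the lowest mean of the elongating group, averages -1.67 and Cfap61, with the highest mean of the pachytene group, 1.74, and WT 1 lies closer to 0 than the other libraries at both ends.

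Spermatogonial levels were set beside those in somatic nuclei, since free RNA can reach both. The spermatogonial level exceeded the highest of the Sertoli, Leydig and macrophage levels for 58 of the 72 genes, but by more than 2-fold for 9, with a median ratio of 1.33. Against the highest of all 7 somatic gates, the small endothelial and T cell gates included, it was higher for 12 genes, by more than 2-fold for 1, with a median ratio of 0.541. Most spermatogonial levels were thus not above what some somatic gate read. Dnah9 was the only member with a level above every germ gate in each library in a somatic gate. It read 245, 222, 232 and 292 CPM in Leydig nuclei, against 168, 186, 150.0 and 116 CPM in round spermatids and 16.2 ± 16.3 CPM in macrophages. Dnah2 read 197, 253, 215 and 191 CPM in Leydig nuclei, next to 313, 245, 375 and 447 CPM in pachytene nuclei and 17.7 ± 10.8 CPM in Sertoli nuclei. Leydig levels of both genes were above the Sertoli and macrophage levels in each library.

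The second question was whether loss of Dhx37 in Sertoli cells was accompanied by changed levels of flagellum genes in germ nuclei. UMIs were summed per library and gate and compared with edgeR, with p-values adjusted over all genes of the gate. In pachytene nuclei 0 of 72 members passed an adjusted p of 0.05, beside 0% of all 19794 genes. Unadjusted p-values under 0.05 were found for 5 members, beside 15.8% of all genes. DESeq2 called 0 members, beside 0.668% of the 12719 genes to which it gave an adjusted p. The median log2 difference of Dhx37-/- from WT was 0.02 over the members and -0.01 over all genes. The members with the smallest p were Rsph3a (0.61), Rsph6a (0.68) and Dnah2 (0.55) on the higher side and Dnah11 (-1.44), Dnah5 (-0.92) and Cfap100 (-0.58) on the lower side, with adjusted p from 0.225 to 0.322. The count depended on the WT libraries, since 14 members were called without WT replicate 1, 9 higher and 5 lower, beside 20.5% of all genes, 2211 higher and 2154 lower, and 17 without WT replicate 2, 3 higher and 14 lower, beside 20.8%, 2248 higher and 2136 lower.

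In round spermatids 0 of 72 members passed, beside 0.0092% of all 21746 genes. 3 members had an unadjusted p under 0.05, beside 6.84% of all genes, and DESeq2 called 0, beside 0.14% of 17118 genes. The median difference was -0.03 over the members and -0.04 over all genes. Odf3 read 146 and 230 CPM in WT and 324 and 340 CPM in Dhx37-/-, which did not overlap, with a log2 difference of 0.82 ± 0.25 (SE) and an adjusted p of 0.721 by edgeR. Cfap126, a doublet-associated protein (0.68), and Tekt2 (0.49) followed on the higher side, and Dnah6 (-0.42), Dnah9 (-0.42) and Dnah5 (-0.46) on the lower. Without WT replicate 2, 3 members were called, beside 4.82% of all genes.

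In elongating spermatids 0 of 71 members passed, beside 0% of all 17713 genes. 5 members had an unadjusted p under 0.05, beside 9.99% of all genes, and DESeq2 called 0, beside 0.333% of 14123 genes. The members with the smallest p were Cfap126 (0.72), Odf3b (0.61) and Odf3 (0.47) on the higher side and Dnah10 (-0.86), Cfap74 (-0.78) and Cfap46 (-0.50) on the lower side, with adjusted p from 0.382 to 0.5002. Without WT replicate 1, 11 members were called, beside 10.9% of all genes, and 8 without WT replicate 2, beside 6.19%. In these 3 late gates, which hold most germ nuclei, no member was called by either tool with all libraries.

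**Figure D4:**
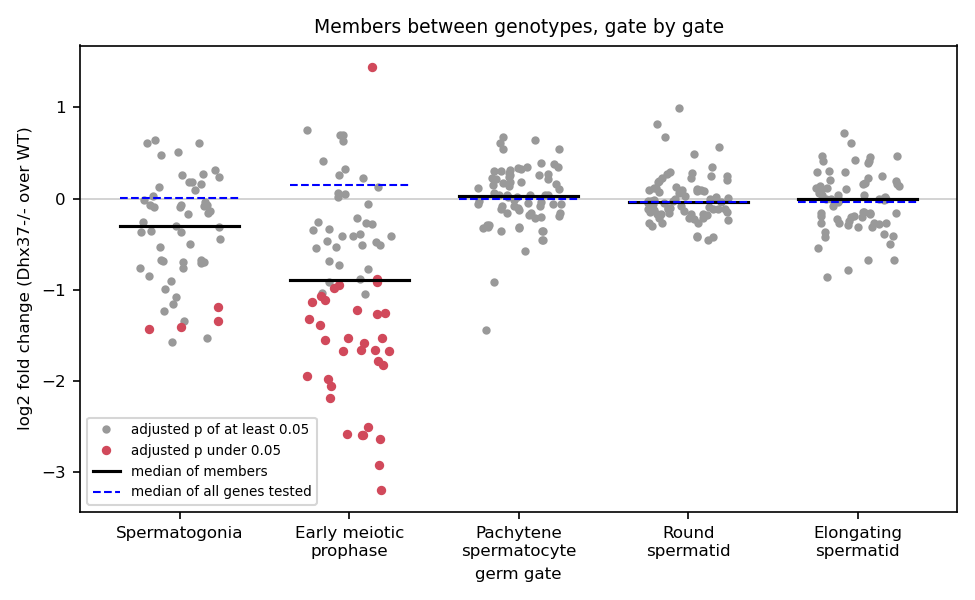
Log2 difference of Dhx37-/- from WT (edgeR) for each tested member in the 5 germ gates, with members at an adjusted p under 0.05 in red, their median as a black line and the median of all genes as a blue dashed line. The early meiotic prophase gate has 34 red points, the spermatogonia gate 4, and the other gates none. The median over all 70 members tested in early meiotic prophase, red or not, is -0.90.

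In early meiotic prophase 34 of 70 members were called, 33 lower and 1 higher in Dhx37-/-, beside 47.1% of all 10312 genes, of which 2230 were called higher and 2629 lower. The members' share of calls was thus near that of all genes, while their median difference was -0.90 against 0.15 over all genes. An unadjusted p under 0.05 was found for 37 members, beside 55.2% of all genes. DESeq2 called 20 of the 70 members to which it gave an adjusted p, beside 23.5% of 12462 genes. By edgeR 18 were called without Dhx37-/- replicate 1, beside 29.3% of all genes, and 11 without Dhx37-/- replicate 2, beside 21.9%. Cfap61 read 1256 and 918 CPM in WT and 239 and 181 CPM in Dhx37-/-, a log2 difference of -2.59 ± 0.40 (SE, adjusted p 0.000759, edgeR). Dnah6 read 523 and 473 CPM in WT and 134 and 117 CPM in Dhx37-/- (-2.19 ± 0.31). Neither gene's genotypes overlapped. Of the 70 tested members 38 were lower and 9 higher without overlap. The share over all genes was not counted, so these counts are not read as a result about the members. Cfap58 (-2.92), Cfap221 of the central pair (-2.64), Cfap77 (-3.20), Dnah10 (-2.58), Cfap161 (-1.95), Dnah3 (-2.51), Rsph10b (-1.78) and Odf3l1 (-2.05) complete the 10 with the smallest p, with adjusted p up to 0.00112. Dnah14 was the member called higher, at 312 and 184 CPM in WT and 714 and 903 CPM in Dhx37-/- (1.45 ± 0.40, adjusted p 0.0145, edgeR). Its adjusted p was 0.103 without Dhx37-/- replicate 2. Drc3 (0.70) and Rsph3a (0.75) were next on the higher side and did not pass, with adjusted p of 0.0811 and 0.0953.

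The nuclei of this gate also differed by genotype. Their median UMI count was 3492 and 3763 in WT and 4833 and 5634 in Dhx37-/-. A stricter posterior of 0.99 kept 55 of 107 and 16 of 37 WT nuclei, and 123 of 143 and 365 of 397 Dhx37-/- nuclei. The early prophase marker list summed to 3062 and 2967 CPM in WT and 4930 and 4660 CPM in Dhx37-/-, with none of its 12 markers at 0, and the round spermatid list to 1715 and 1674 CPM against 632 and 591 CPM, with none of its 13 at 0. The Zfp820 and Stox1 nuclei formed 26.6% and 47.1% of the gate in the Dhx37-/- libraries and 0.935% and 0% in WT. The part of these differences in the result was not tested. Without those nuclei, 40 of 66 members were called, all lower, beside 49.2% of all 8877 genes, 2197 higher and 2170 lower. The members' median was then -1.07, against 0.21 over all genes, and Dnah14 had a difference of 0.05 (adjusted p 0.895, edgeR). In the Dhx37-/- libraries those nuclei read 1465 and 1428 CPM of Dnah14 and 1728 and 1893 CPM of Dnah8. With the gate limited to nuclei that held at least 3 times as many early prophase as round spermatid UMIs, 27 of 66 members were called, 26 lower and 1 higher, beside 25.2% of all 8334 genes, 737 higher and 1361 lower. That limit left 38 and 10 nuclei in WT and 119 and 350 in Dhx37-/-. Both limits were chosen after the data had been seen. In these bulk sums, fewer nuclei of a substage and less RNA per nucleus cannot be told apart.

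**Figure D5:**
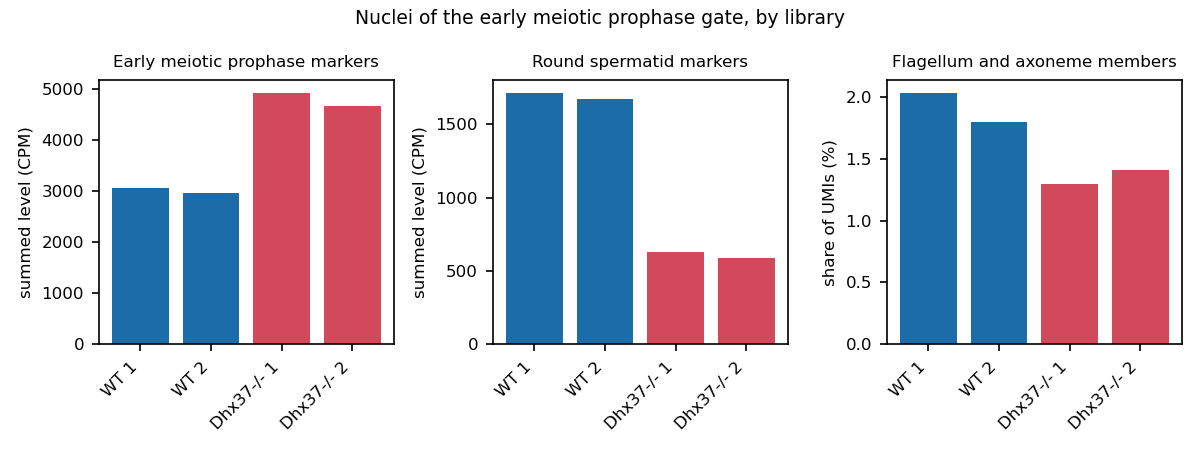
Early meiotic prophase gate in each library, as bars of the summed level (CPM) of the early prophase markers, of the round spermatid markers, and of the 74 genes' share of UMIs (%). Both Dhx37-/- libraries lie above WT for the early markers, and below WT for the round markers and for the share, at 1.30% and 1.41% against 2.03% and 1.80%.

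In spermatogonia 4 of 56 members were called, each lower in Dhx37-/-, beside 0.596% of all 9394 genes, 4 of which were higher and 52 lower. Dnah3 read 236 and 242 CPM in WT and 85.3 and 95.5 CPM in Dhx37-/-, a log2 difference of -1.41 ± 0.23 (SE, adjusted p 0.0269, edgeR). Cfap299 read 208 and 366 CPM against 103 and 115 CPM (-1.34 ± 0.26, adjusted p 0.0394, edgeR). Dnah7a (-1.43 ± 0.28) and Dnah7c (-1.19 ± 0.24), the near-identical copies, had the same adjusted p. The genotypes did not overlap for any of the 4, which were picked from these same values. Of the 56 tested members 19 were lower and 7 higher without overlap. The share over all genes was not counted, so these counts are not read as a result about the members either. On the higher side Tekt1 (0.64), Rsph10b (0.51) and Cfap126 (0.61) had the smallest p, with adjusted p from 0.498 to 0.668. The members' median difference was -0.30 and that of all genes 0.00, and 16 members had an unadjusted p under 0.05, beside 12.5% of all genes. DESeq2 called 2 of the 25 members to which it gave an adjusted p, beside 0.633% of 4264 genes. By edgeR 1 member was called without the 2 Zfp820 and Stox1 nuclei of this gate, beside 0.182% of all genes, and 1 without TMM, beside 0.16%. With a replicate block 0 were called, beside 0.181%, and without the limit of 5000 genes 0, beside 0.00994%. Without Dhx37-/- replicate 1 the count was 0, beside 0.199% of all genes, without Dhx37-/- replicate 2 it was 1, beside 1.64%, which is near the share of members, and without WT replicate 2 it was 10, beside 5.41%. The round spermatid marker list summed to 1736, 1425, 1313 and 1487 CPM in this gate and the elongating list to 4894, 4091, 7652 and 6175 CPM, with none of these markers at 0, and their part in the result was not tested.

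The difference in genotype effect between the round and pachytene gates was tested in 1 model. It passed for 2 of 72 members, beside 0.888% of all 21958 genes, and 8 members had an unadjusted p under 0.05, beside 13.4% of all genes. Dnah2 (ENSMUSG00000005237) had a genotype difference 0.86 ± 0.16 (SE) lower on the log2 scale in round spermatids than in pachytene nuclei (adjusted p 0.0203, edgeR), where it read 313 and 245 CPM in WT and 375 and 447 CPM in Dhx37-/-, against 44.1 and 34.7 and then 29.3 and 36.4 CPM in round spermatids. For Dnah14 (ENSMUSG00000047369) the difference was 0.72 ± 0.16 lower (adjusted p 0.0484, edgeR), with 520 and 382 CPM in WT and 591 and 740 CPM in Dhx37-/- pachytene nuclei. Cfap97 (-0.54), Cfap100 (0.66), Dnah11 (1.11) and Odf3 (0.48) did not pass. No member was called by edgeR without the Zfp820 and Stox1 nuclei, which formed 0.401%, 0.798%, 3.93% and 7.11% of the pachytene gate. At that setting 0.0916% of all genes were called by edgeR. There 5 members had an unadjusted p under 0.05, beside 2029 of 21834 genes, and DESeq2 was not run. No member was called when either Dhx37-/- library was left out, and 5 were called without WT replicate 2, beside 2.84% of all genes. With all libraries DESeq2 called 1 of the 69 members to which it gave an adjusted p, beside 1.88% of 8531 genes.

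Other genes of the flagellum, taken from a list of dynein intermediate chains, assembly factors, intraflagellar transport, central pair and fibrous sheath genes, were read in the same way. In early prophase 33 of 64 were called, all lower in Dhx37-/-, beside 47.1% of all genes, with a median of -0.88. Without the Zfp820 and Stox1 nuclei 36 of 64 were called, all lower, beside 49.2%. In spermatogonia 4 of 54 were called, all lower, beside 0.596% of all genes, and 2 of 54, Fsip2 and Hydin, without those nuclei, beside 0.182%. The 4 were Spag16 (-1.46) and Hydin (-1.55) of the central pair, Fsip2 (-1.36) of the fibrous sheath and Odad2 (-1.38) of the outer-arm docking complex. The early prophase genes included Iqca (-3.44) and Spag6 (-2.82) as well as Enkur, Fsip2, Ift74, Dnali1, Ift81, Wdr66, Ccdc63, Lrrc23, Akap3, Iqub, Lrguk, Armc2, Ttc29, Hydin, Dynlrb2, Ift88, Dzip1, Ttc21a, Qrich2, Odad4, Ccdc42, Septin4, Efcab6, Spef2, Lrrc6, Ccdc65, Ropn1, Nme5, Cabyr and Odad2. In pachytene, round and elongating nuclei 0 of 66 were called by edgeR, with 8, 5 and 6 at an unadjusted p under 0.05, beside 15.8%, 6.84% and 9.99% of all genes. Among 9 regulators of ciliary and spermatid genes, 6 were called in early prophase, namely Foxj1 (-2.09), Rfx3 (-1.50), Rfx1 (-1.47), Rfx4 (-1.06) and Crem (-1.11) lower and Tcfl5 (1.17) higher, beside 47.1% of all genes, and 0 in the other 4 gates. Without the Zfp820 and Stox1 nuclei 5 of the 9 were called, beside 49.2%, and Rfx1 (-0.80, adjusted p 0.0931, edgeR) was no longer among them.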

How the data were processed

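Single-nucleus RNA of 4 testis libraries was used as deposited by the authors, in the form of raw UMI counts with no normalization. The headers name Cell Ranger 7.2.0. The submitters' processing notes name GRCm38, while the methods of the study name a later mouse build, so no coordinates were taken from the files. Whether intronic reads were counted, and with which strand setting, is not given in the sources used here. Nuclei isolation removes most cytoplasmic RNA, and levels were read from barcodes called as nuclei. They can include free RNA, in an amount that was not estimated.

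The 74 members and all lists were chosen with earlier results of these data known. The calling of nuclei had 2 steps, run in Python 3.11.15. Barcodes above 10% of the 99th percentile of 8000 expected nuclei were taken, and other barcodes of at least 500 UMIs were compared with the free RNA of ranks 45000 to 90000 (10000 simulations, adjusted p of 0.01). The limits were 500 to 5000 genes and 25% mitochondrial UMIs. These limits without the calling left 12700, 8641, 10773 and 11511 barcodes. A nucleus entered a gate at a posterior of 0.9 from its 107 marker genes alone and at most 2% mitochondrial UMIs, and a profile for nuclei without a list was included. Scrublet in scanpy 1.11.5 marked 4.22% to 4.54% of nuclei as doublets, which were kept except in an alternative.

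UMIs were summed per library and gate, from 141560 (early meiotic prophase, WT 2) to 12513520 in the germ gates. They were compared, two-sided, with edgeR 4.0.16 under R 4.3.3 (TMM, filterByExpr, quasi-likelihood F-test). P-values were adjusted by Benjamini-Hochberg over all genes of the gate at 0.05. Each library held at least 20 nuclei of the gate, except at the limit of 3 times as many early prophase UMIs, where WT 2 held 10. DESeq2 1.42.0 was an alternative. The code was tested on simulated data. For the summed share of UMIs, exact permutation of 2 against 2 libraries cannot go below p = 0.333, so no test is given. Named genes were 23 fixed components, the 3 genes with the largest share of their level in each gate, and up to 10 called members in each direction, or the 3 with the smallest p where fewer than 3 were called. Fold changes and levels cover counting and library spread of 2 libraries a genotype. A called gene of the other flagellum list is not reported here by name.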

Additional observations from a re-analysis of the deposited data

Results flagged for a closer look

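By the test of the difference itself, the genotype effect differed between the round spermatid and pachytene gates for 2 of 72 members. This stands beside 0.888% of all 21958 genes (edgeR). By unadjusted p under 0.05 it was 8 members, beside 13.4% of all genes. For Dnah2 the effect in round spermatids minus that in pachytene nuclei was -0.86 on the log2 scale (adjusted p 0.0203, edgeR). In pachytene nuclei both Dhx37-/- libraries were above both WT libraries, at 375 and 447 CPM against 313 and 245 CPM, while the genotypes overlapped in round spermatids. For Dnah14 it was -0.72 (adjusted p 0.0484, edgeR), again with both Dhx37-/- libraries above WT in pachytene nuclei. Without the Zfp820 and Stox1 nuclei the differences were -0.69 (adjusted p 0.171, edgeR) and -0.41 (adjusted p 0.422). Over the other alternatives and single libraries left out, the adjusted p ran from 0.00282 to 0.268 for Dnah2 and from 0.000559 to 0.462 for Dnah14.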

How the results depend on the processing

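The share of all genes called at the same setting stands in brackets. In spermatogonia 4 members were called (0.596%), and 2 with DESeq2 (0.633% of genes with an adjusted p), 1 with library totals without TMM (0.16%), 0 without the upper limit of 5000 genes (0.00994%) and 1 without the Zfp820 and Stox1 nuclei (0.182%), with 0 to 10 (0.199% to 5.41%) when single libraries were left out. In early prophase 34 members were called (47.1%) and 20 with DESeq2 (23.5%), with 11 to 38 (21.9% to 42.2%) when single libraries were left out. The stricter posterior was not run there, as WT 2 held 16 nuclei. The ranges with single libraries left out were 0 to 17 in pachytene nuclei (0.0143% to 20.8% of all genes), 0 to 3 in round spermatids (0.00862% to 4.82%) and 0 to 11 in elongating spermatids (0.017% to 10.9%), each against 0 with all libraries. Where an arm then held 1 library, it was assumed to vary like the others. For the difference between the round and pachytene gates, 2 members were called (0.888%), 1 with DESeq2 (1.88%), 1 without TMM (0.747%), 0 without the Zfp820 and Stox1 nuclei (0.0916%) and 0 to 5 (0% to 2.93%) when single libraries were left out. The cause of these shifts was not tested.

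The highest gate was early prophase for 8 members, 13 with the stricter posterior, 4 without the Zfp820 and Stox1 nuclei, and 10 to 13 when single libraries were left out, and spermatogonia for 0, 1 without those nuclei and 0 to 1 when single libraries were left out. In spermatogonia 56 genes were called, 4 higher and 52 lower, against 4 and 11 without TMM, 35 and 152 with no filter on low counts, and 8 and 19 with DESeq2. Leaving out TMM moved the median of all genes in early prophase from 0.15 to 0.36. Genes called there, 2230 higher and 2629 lower, became 2987 and 2414 without TMM. They were 3738 and 2539 with no filter on low counts, 2903 and 2564 with doublets left out, and 1342 and 1587 with DESeq2. Members called at these 4 settings were 5, 5, 3 and 1 higher and 33, 21, 33 and 19 lower. DESeq2 called 98 higher and 62 lower genes for the difference between gates, against 76 and 119. Over all alternatives, genes called ran from 1 to 573 in spermatogonia, 2098 to 6277 in early prophase, 0 to 4384 in pachytene, 0 to 1103 in round and 0 to 2144 in elongating nuclei, and 0 to 675 for the difference between gates. DESeq2 called 2929 genes in early prophase, 85 in pachytene, 24 in round and 47 in elongating nuclei, against 4859, 0, 2 and 0. The Cfap126 difference in spermatogonia was 0.61, and between -0.086 and 0.891 when single libraries were left out, the former without Dhx37-/- replicate 2.

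Libraries with the same replicate number deviated from their group means with correlations of -0.11, -0.04, -0.22, -0.19 and 0.07 over genes. The values are for the 5 gates from spermatogonia to elongating spermatids. The labels state no shared litter, day or batch. With 2 libraries a genotype these correlations cannot exclude one. With a replicate block, members called were 0, 31, 0, 0 and 0, and genes 17, 4515, 0, 0 and 126. The model for the difference between gates already held the library as a block. With crossed numbers, a pairing chosen after the data had been seen as was the leaving out of the Zfp820 and Stox1 nuclei, members were 8, 33, 0, 0 and 0 and genes 335, 4709, 1018, 101 and 66. The 57 spermatogonia and 37 early prophase nuclei of WT 2 limit what these gates can show.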
